A study of Rattus norvegicus with 2 samples.

Results

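Fatty acid oxidation was followed through 9 genes in rat urine RNA: Cpt1a, Cpt2, Acadm, Acadl, Acadvl, Hadha, Hadhb, Ehhadh and Ppara. They were taken by symbol from the 16484 features of the table that carry a rat NCBI gene number. The list was set with earlier results of these data known. Of the 9 genes, 9 were found among the 113011 features listed. The study compared RNAs of urine between rats with and without renal fibrosis. For this it sequenced 1 urine library labelled WT and 1 labelled UUO (unilateral ureteral obstruction, the tying of 1 ureter). Both came from Sprague Dawley rats, given as postnatal day 56 in the labels and as 8 weeks old in the protocol. In the UUO group the right ureter was ligated, and the sham-operated WT group had the same surgery without ligation. The operated animals were followed for 2 weeks, and urine was then drawn from the ureter by catheter in both groups. No transgene or drug was used in either group, and the number of rats behind a library is not stated in the sources used here. The deposited columns carry the names UrRf and Urc, which are not sample titles. UrRf was read as UUO and Urc as WT, and a swap of the names would turn each direction below.

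Beta-oxidation shortens fatty acids by repeated turns of the same reactions. Long chains enter mitochondria as carnitine esters, made by Cpt1a on the outer membrane and undone by Cpt2 on the inner one. Acyl-CoA dehydrogenases sorted by chain length, Acadvl, Acadl and Acadm, then open each turn, and the trifunctional protein, built from Hadha and Hadhb, completes it for long chains. Peroxisomes hold a separate set of enzymes, of which Ehhadh is a bifunctional one, and hand shortened chains to mitochondria. Ppara is the fatty acid sensing nuclear receptor that drives genes of both routes. The proximal tubule of the kidney relies on this pathway for its energy.

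Values are FPKM, fragments scaled to transcript length and to the fragments mapped in the library. There was 1 value per gene and library, so differences have no replicate check and were not tested. Differences are given as UUO minus WT on the log2(FPKM + 1) scale, which understates changes of low genes, and were counted from 1 upward in size (2-fold). The steps in the FPKM values of short assembled features fitted a normalising total of 2116000 fragments for WT and 2441000 for UUO urine. By these totals, a kilobase of Cpt2, the lowest of the genes, stood for 3.53 fragments in WT and 18.0 in UUO urine, and a kilobase of Acadvl for 288 and 52.7. The other 7 genes had between 10.6 and 225 fragments per kilobase in WT and between 29.5 and 130 in UUO urine. These estimates cover counting error only, and transcript lengths were not used.

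All 9 genes reached an FPKM of 1, the limit used here for a gene as seen, in both libraries. Cpt2 and Ppara were at least 2-fold higher in UUO urine, Acadvl, Hadha and Ehhadh were at least 2-fold lower, and 4 genes lay between these limits. Among the 9853 number-only genes seen in either library, 25.7% were higher and 36.5% lower by the same limit. Among the 7218 genes at or above that level in both libraries, as these 9 were, 7.01% were higher and 42.8% lower. The share of lower genes (3 of 9, 33.3%) was near both backgrounds. The share of higher genes (2 of 9, 22.2%) was near the background of genes seen in either library and above that of genes seen in both. The median difference of the 9 genes was -0.62, against -0.51 over genes seen in either library and -0.81 over genes seen in both. Scaling moved the split. After rescaling UUO values by the median ratio of genes above 0 in both libraries, 3 of the 9 were higher and 1 lower, against backgrounds of 40.7% and 14.9%. Counts of 3 and 1 were also found after rescaling to the same 75th percentile (38.6% and 16.7%) and to equal sums without haemoglobin genes (39.1% and 16.1%). With equal sums of all number-only genes, 2 were higher and 3 lower (30.3% and 28.1%). The backgrounds after rescaling are all over genes seen in either library. Those over genes seen in both were not computed, so these counts cannot be placed above or below a matching background.

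**Figure D1:**
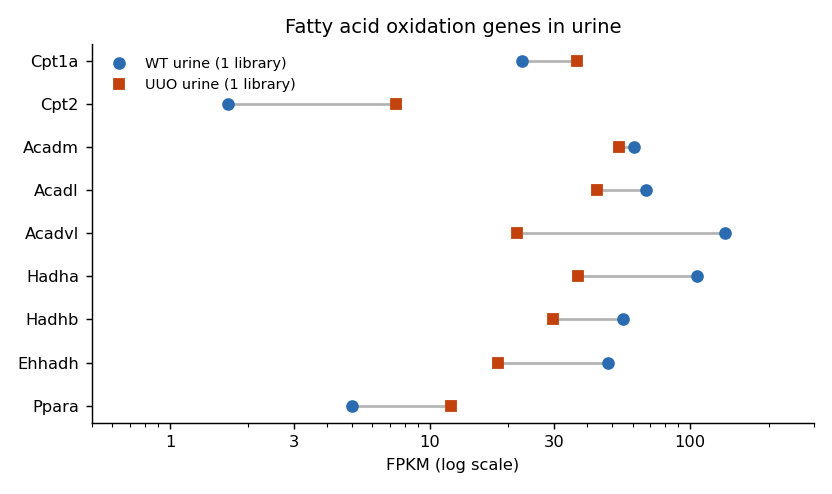
FPKM of the 9 genes (log axis) in the WT library (circles) and the UUO library (squares), 1 value each, joined by a grey line. Cpt1a, Cpt2 and Ppara lie to the right in UUO urine and the other 6 genes in WT urine, with the longest line downward at Acadvl (136 against 21.6).

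The carnitine palmitoyltransferases both stood higher in UUO urine. Cpt1a (gene 25757, chromosome 1, 225437223 to 225497586, build rn5 here and below) was at 22.6 FPKM in WT against 36.7 in UUO urine, a log2 difference of 0.67 that did not reach the 2-fold limit. After rescaling by the median ratio it passed the limit, at 1.59. Cpt2 (gene 25413, chromosome 5, 131353538 to 131370821) was at 1.67 FPKM in WT against 7.39 in UUO urine, a log2 difference of 1.65. Cpt2 was the lowest of the 9 genes in both libraries, and with a pseudocount of 5 its difference was 0.89, under the limit. Within a library, where scaling has no part, Cpt1a was 13.6 times as abundant as Cpt2 in WT and 4.96 times in UUO urine.

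The gene between these enzymes, Slc25a20, which carries acylcarnitines across the inner membrane, was the other way, with 69.1 FPKM in WT against 16.4 in UUO urine (log2 difference -2.01). Across 14 genes of fatty acid uptake, activation and the carnitine shuttle, 11 were seen in either library, of which 3 were higher and 5 lower by the 2-fold limit, with a median of -0.51. The sign of this median changed with the settings. It was 0.75 by the median ratio, 0.68 by the 75th percentile, 0.70 by sums without haemoglobin genes and 0.16 with FPKM summed over the locus. With equal sums it was -0.22. Of the 10 seen in both, 2 were higher and 5 lower, with a median of -1.07, beside 7.01% and 42.8% of all number-only genes seen in both. Acsl1, a long-chain acyl-CoA synthetase, had the greatest difference downward, from 41.7 in WT to 3.03 in UUO urine (-3.40), and Cpt2 the greatest upward. Crat, the short-chain carnitine acetyltransferase, was at 52.5 in WT and 16.3 in UUO urine. The muscle form Cpt1b and the brain form Cpt1c were both listed at 0 in WT urine, and at 0.616 and 1.08 in UUO urine. Cpt1c was thus counted as higher with its direction fixed by the limit.

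The promoter of Cpt2 is shown because it belongs to the gene with the greatest difference upward. It is the 250 bases before the RefSeq start on the minus strand (build GRCr8, chr5:127910819-127911068), 66.8% G and C, with 3 GC boxes (GGGCGG, either strand) in capitals.
Cpt2: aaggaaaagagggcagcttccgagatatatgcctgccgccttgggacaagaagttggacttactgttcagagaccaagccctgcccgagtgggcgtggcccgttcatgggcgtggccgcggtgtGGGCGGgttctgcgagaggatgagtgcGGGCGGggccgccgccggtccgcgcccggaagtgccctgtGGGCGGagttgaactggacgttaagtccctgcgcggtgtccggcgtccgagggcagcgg

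The 3 acyl-CoA dehydrogenases among the 9 genes differed by unlike amounts. In the wider mitochondrial list Acads, the short chain enzyme, was at -1.90, so no order by chain length held. Acad9, a further acyl-CoA dehydrogenase, was at 5.10 FPKM in WT and 6.87 in UUO urine (0.37). Acadvl, the very long chain enzyme (gene 25363, chromosome 10, 56355005 to 56369652), was the most abundant of the 9 genes in WT urine and ranked 6 in UUO urine. It was at 136 FPKM in WT against 21.6 in UUO urine, which is 6.30-fold lower (-2.60). Of the number-only genes seen in either library, 5.42% had a difference as low or lower. Acadl, the long chain enzyme (gene 25287, chromosome 9, 73434281 to 73473600), was at 67.8 FPKM in WT against 43.8 in UUO urine (-0.62). Acadm, the medium chain enzyme (gene 24158, chromosome 2, 278788484 to 278812656), was at 60.6 FPKM in WT against 53.1 in UUO urine (-0.19). Under the 3 rescalings planned the sign of Acadm changed in each (0.12 to 0.74) and that of Acadl in 2 (0.20 and 0.30). Acadm ranked 4 in WT urine and 1 in UUO urine. Relative to Acadm in the same library, Acadvl was at 2.25 in WT and 0.407 in UUO urine, while Acadl was at 1.12 and 0.824.

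Acadvl shares its listed locus with 20 other features, more than any other of the 9 genes, and these include Dvl2, a signalling protein of the Wnt pathway. Dvl2 was listed at 0 in WT and at 8.98 FPKM in UUO urine. The whole locus summed to 141 FPKM in WT against 50.02 in UUO urine, which gave -1.48 in place of -2.60. The size of the Acadvl difference thus moved with the entries counted at this locus, and both values lay past the 2-fold limit. At the other 8 loci no other feature exceeded an FPKM of 1.63, and the locus sum moved the log2 difference by less than 0.2.

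The promoter of Acadvl is shown because its gene had the greatest difference downward. The 250 bases (GRCr8, chr10:55236706-55236955, minus strand) are 53.6% G and C and hold no GC box. They hold the nuclear receptor hexamer AGGTCA in capitals at 2 places, and were the only 1 of the 8 promoters matched in the RefSeq table that did.
Acadvl: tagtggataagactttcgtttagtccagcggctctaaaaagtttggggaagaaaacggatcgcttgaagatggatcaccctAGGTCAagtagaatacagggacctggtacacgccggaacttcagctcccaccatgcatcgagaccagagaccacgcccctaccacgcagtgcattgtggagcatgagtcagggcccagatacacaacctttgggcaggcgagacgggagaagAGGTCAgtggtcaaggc

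Hadha and Hadhb, the subunits of the trifunctional protein, were both lower in UUO urine, and to a different degree. Hadha (gene 170670, chromosome 6, 37400490 to 37439592), which carries the hydratase and hydroxyacyl dehydrogenase activities, was at 106 FPKM in WT against 37.1 in UUO urine (-1.49). Hadhb (gene 171155, chromosome 6, 37366078 to 37400206), the thiolase subunit, was at 55.0 FPKM in WT against 29.6 in UUO urine (-0.87), inside the 2-fold limit. The ratio of Hadha to Hadhb was 1.93 in WT and 1.26 in UUO urine. After rescaling by the median ratio the differences were -0.58 for Hadha and 0.038 for Hadhb. Neither then reached the 2-fold limit, and the sign of Hadhb changed.

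These genes lie head to head, with 284 bases between their listed loci, and RefSeq places their starts on opposite strands with 300 bases between them. The 200 bases that the promoter windows of both have in common (GRCr8, chr6:31907551-31907750, plus strand) are shown because the pair is read outward from the same stretch. Its single GC box is in capitals.
Hadha and Hadhb: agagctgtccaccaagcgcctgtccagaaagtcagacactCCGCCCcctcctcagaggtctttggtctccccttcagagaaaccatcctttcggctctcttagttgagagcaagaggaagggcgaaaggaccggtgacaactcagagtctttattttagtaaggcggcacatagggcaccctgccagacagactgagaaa

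**Figure D2:**
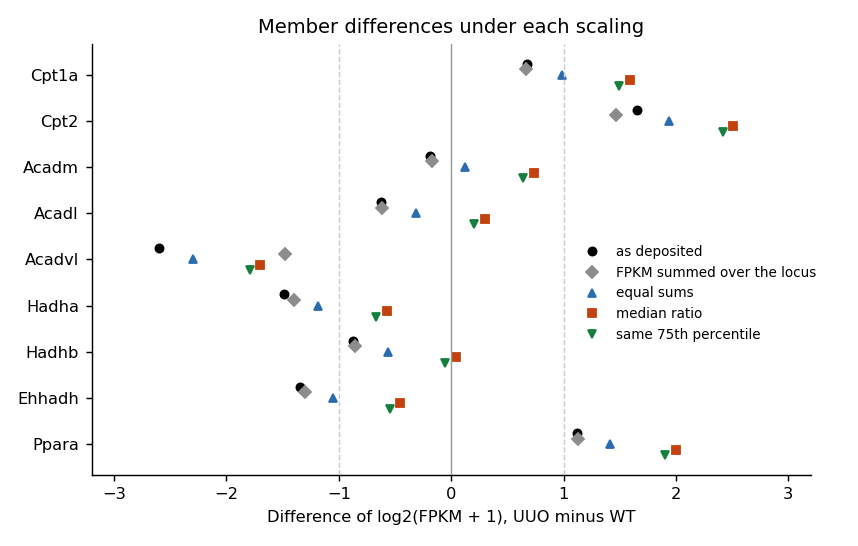
Difference of log2(FPKM + 1), UUO minus WT, for the 9 genes as deposited, with FPKM summed over the locus, and after 3 rescalings of the UUO library; dashed lines mark 2-fold. Acadvl stays left of -1 and Cpt2 and Ppara right of 1 in each series, while Acadm, Acadl and, by the median ratio, Hadhb change sign.

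Ehhadh, the peroxisomal bifunctional enzyme (gene 171142, chromosome 11, 86024802 to 86057826), was at 48.1 FPKM in WT against 18.2 in UUO urine, a log2 difference of -1.35. Its mitochondrial counterpart Hadha differed by a like amount, so that the ratio of Ehhadh to Hadha was 0.453 in WT and 0.492 in UUO urine. The ratio of Ehhadh to Hadhb was 0.874 in WT and 0.617 in UUO urine. With the median ratio the Ehhadh difference was -0.45, inside the limit. The promoter of Ehhadh is shown as the peroxisomal one of the set (GRCr8, chr11:92746159-92746408, plus strand). It is 62.0% G and C, and the capitals mark a CCAAT box, read here as ATTGG on the other strand, and a GC box, read as CCGCCC.
Ehhadh: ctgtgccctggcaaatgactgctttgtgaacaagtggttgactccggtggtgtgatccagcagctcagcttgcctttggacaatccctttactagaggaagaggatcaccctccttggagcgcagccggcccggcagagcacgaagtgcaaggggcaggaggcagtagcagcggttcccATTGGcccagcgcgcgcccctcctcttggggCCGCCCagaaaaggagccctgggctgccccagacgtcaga

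GC boxes were found in 5 of the 8 matched promoters (Cpt2, Ehhadh, Hadha, Hadhb and Ppara), against 30.5% of 33469 promoters of the same length. The only box of Hadha lies in the 200 bases shared with Hadhb, so these promoters are not independent. Hadhb holds another box outside them. The hexamer AGGTCA was in 14.1% of all promoters and CCAAT in 34.02%, and each was in 1 of the 8. PPAR binds with its partner RXR to 2 such hexamers with 1 base between them. Only the exact letters of this direct repeat were searched, on both strands, counting the hexamer within it under both motifs. They were in 0.0508% of all promoters and in 0 of the 8, and a string this rare would be missing from most sets of 8. In the Acadvl promoter an AGGTCA is followed, after 1 base, by TGGTCA, which differs from the hexamer by 1 letter. These are matches of letters in a short window and say nothing of binding.

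Ppara (gene 25747, chromosome 7, 126330831 to 126392858) was at 5.03 FPKM in WT against 12.1 in UUO urine, a log2 difference of 1.12. It ranked 8 of 9 in both libraries. It was above the 2-fold limit under each of the 3 rescalings planned (1.41 to 2.00), and under it with a pseudocount of 5 (0.77). Of 12 PPAR regulators, 11 were seen in both libraries, of which 3 were higher (Ppara, Pparg and Ppargc1a) and 6 lower, with a median of -1.01, beside 7.01% higher and 42.8% lower among all genes seen in both. Pparg, the receptor of adipocytes that is also found in urothelium and collecting duct, had the greatest difference upward, from 13.7 in WT to 45.5 in UUO urine (1.66). Ppard, the widely expressed form, was at 48.2 in WT and 23.5 in UUO urine (-1.01). Ppargc1b, a coactivator of oxidative metabolism, had the greatest difference downward (18.9 in WT, 3.79 in UUO urine, -2.06), while Ppargc1a was at 1.83 and 5.14. Esrra, which works with these coactivators, was at 164 in WT and 41.3 in UUO urine, and Rxra, the partner of the PPARs, at 81.0 and 65.5.

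Of 14 genes known as PPARA targets in other tissues, outside the oxidation steps, 8 were seen in both libraries. Of these 1 was higher and 5 lower, with a median of -1.41, beside 7.01% and 42.8% of all genes seen in both. Another pair, Pdk4 and Angptl4, was listed at 0 in WT and seen in UUO urine alone, so that their direction was fixed by the limit. The lipid droplet protein gene Plin2 was the higher one (22.7 in WT, 60.1 in UUO urine, 1.37). Pdk4, which restrains glucose oxidation, was at 4.99 in UUO urine, and Angptl4, a lipase inhibitor, at 3.15. On the lower side Cidec, another lipid droplet protein gene, had the greatest difference (38.4 in WT, 11.4 in UUO urine, -1.67). The acyl-CoA thioesterase genes Acot1 (46.5 and 18.0) and Acot2 (67.3 and 20.8) were also lower. They are close copies that can share reads, so the value of each is uncertain. Fabp1 and Fgf21 were listed at 0 in both libraries.

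Over wider lists, the peroxisomal steps were lower in UUO urine by more than the mitochondrial ones. Of 20 mitochondrial genes, 7 of them among the 9 above, 19 were seen in both libraries, of which 8 were lower and 1 higher, with a median of -0.87. This was near the background of genes seen in both, of which 42.8% were lower and 7.01% higher, with a median of -0.81. Of 20 peroxisomal genes, 1 of them Ehhadh, 19 were seen in either library and 18 in both. Of the 19, 15 were lower and 0 higher, all 19 lay below 0, and the median was -1.63. Of the 18, 14 were lower and 0 higher, with a median of -1.52, beside the same background. Between the medians of genes seen in either library the difference was -0.76 as deposited and between -0.82 and -0.40 under the settings tried. The peroxisomal median of -1.63 is the value of Acox2, which passed the limit through WT urine alone (3.19 FPKM against 0.353 in UUO urine). With an FPKM of at least 5 in either library, which leaves out Acox2, the difference was -0.65. Without the 9 genes the medians were -1.01 over 12 mitochondrial genes and -1.66 over 18 peroxisomal ones seen in either library, Acox2 among them. Summed over each list, FPKM of the peroxisomal steps was 1.23 times that of the mitochondrial steps in WT urine and 0.707 times in UUO urine, a comparison that scaling does not touch. These sums depend on which genes a list holds. In WT urine Ech1 (321) and Amacr (297) were the highest peroxisomal values, and Echs1 entered the mitochondrial sum as 0. By reaction, this ratio was lower in UUO urine for hydration and hydroxyacyl dehydrogenation (1.25 to 0.903) and thiolytic cleavage (2.80 to 1.56). It was about level for transport (0.561 to 0.548) and higher for acyl-CoA dehydrogenation (0.237 to 0.442). No test of the difference between the lists was possible, since genes are not replicates.

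**Figure D3:**
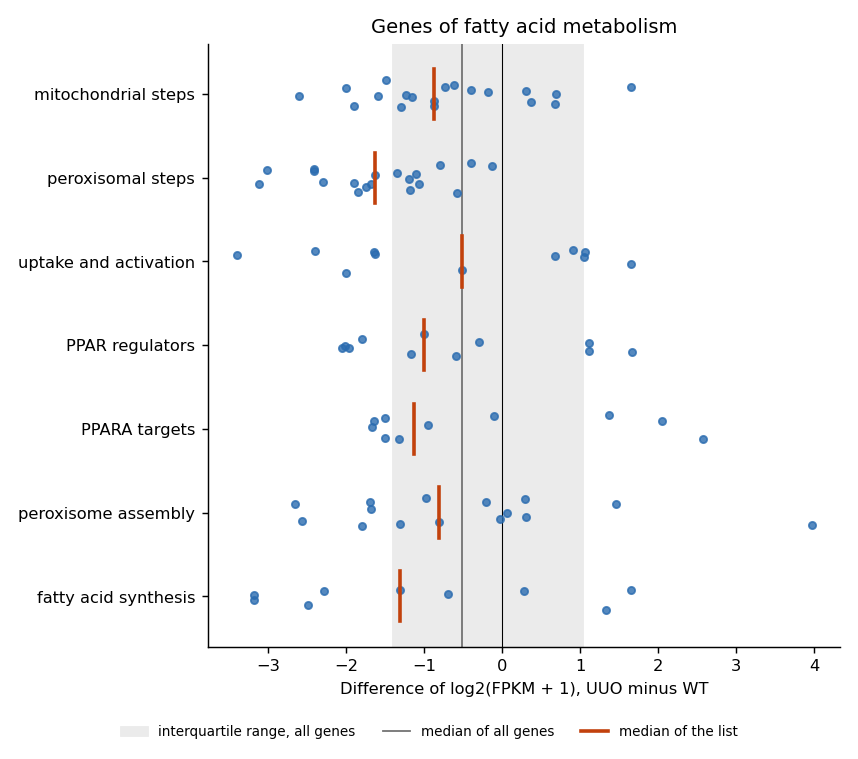
Difference of log2(FPKM + 1), UUO minus WT, for each gene seen in either library (points, moved up or down only for sight) in 7 lists of fatty acid metabolism. The peroxisomal points all lie below 0 with a median (bar) of -1.63, and the mitochondrial points run from -2.60 to 1.65 around -0.87.

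Within the mitochondrial list the electron carriers were divided. Etfb, a subunit of the flavoprotein that takes electrons from the dehydrogenases, was at 258 in WT and 85.2 in UUO urine (-1.59), while the other subunit gene, Etfa, was at 44.7 and 73.0 (0.70). Hsd17b10, the dehydrogenase for short and branched chains, was at 133 in WT and 101 in UUO urine (-0.40). Acads, the short chain dehydrogenase, was at 98.5 and 25.6 (-1.90). As deposited, the medium chain enzyme Acadm differed least among the 4 chain-length enzymes. This order depended on scaling, since by the median ratio Acadl differed by less (0.30) than Acadm (0.74). Echs1, the short chain hydratase, was listed at 0 in both libraries, which can be a failed estimate.

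Within the peroxisomal list Acaa1b, a thiolase, had the greatest difference (180 in WT, 19.8 in UUO urine, -3.12). Acaa1b shares a locus and near-identical sequence with Acaa1a (86.2 and 65.4, -0.39), and over the whole locus the difference was -1.62. The most abundant genes of the list were Ech1, an isomerase of unsaturated chains (321 in WT, 64.7 in UUO urine, -2.29), and Amacr, the racemase for branched chains (297 and 55.0, -2.41). Hsd17b4, the other peroxisomal bifunctional enzyme, was at 156 in WT and 46.1 in UUO urine (-1.74).

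Cell type markers differed between the libraries as well. All 13 proximal tubule markers were lower in UUO urine, 12 of them by at least 2-fold, with a median of -1.91 and a sum of 1303 FPKM in WT against 357 in UUO urine. The 9 seen in both libraries also had a median of -1.91. Of these 8 were lower by at least 2-fold, beside 42.8% of all number-only genes seen in both. Miox was at 925 in WT and 245 in UUO urine, Lrp2 (megalin) at 38.7 and 5.995, and Slc34a1 at 32.7 and 6.24, while Slc5a12 was listed at 0 in UUO urine. By their medians, the proximal tubule markers were lower by more than the 9 genes (-0.62) or either list of oxidation steps as deposited. With FPKM summed over the locus the order against the peroxisomal steps turned (-1.58 for the markers, -1.62 for the steps). The 9 markers of loop, distal tubule and collecting duct had a median of 0.13 (213 summed in WT, 234 in UUO urine). They include Slc4a1, an anion exchanger that red cells also express, at 0.976 in WT and 70.3 in UUO urine. Without it, a step added after seeing the data, the median was -0.027 and the sums were 212 and 163, so that both turned. The 6 urothelium markers found had a median of 0.64 (806 and 1112), and 0.58 over the 5 seen in both. All 6 red cell markers found were higher in UUO urine (3165 summed in WT, 88682 in UUO urine), 5 of which were seen in both libraries. The 9 leukocyte markers summed to 9.61 in WT and 140 in UUO urine. Of these 6 were listed at 0 in WT urine alone, and only Lyz2 (7.55 and 26.5) and Cd14 (2.05 and 1.31) were seen in both, of which Lyz2 was at least 2-fold higher. Liver markers Alb, Apob and Cps1 were listed at 0 in both libraries. The part of these cell types in the oxidation genes was not tested, and fewer cells of a type and less RNA per cell cannot be told apart in such samples.

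**Figure D4:**
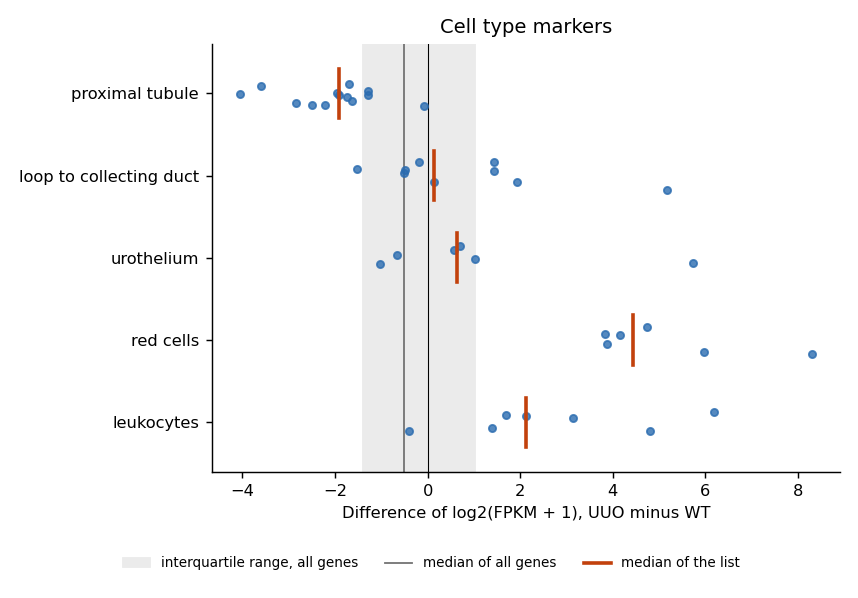
Difference of log2(FPKM + 1), UUO minus WT, for each marker gene seen in either library (points) in 5 cell type lists, with list medians as bars. Proximal tubule markers lie between -4.05 and -0.078, and red cell markers between 3.83 and 8.30.

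Of the FPKM summed over number-only genes, 6 haemoglobin genes took 0.950% in WT and 32.6% in UUO urine. Rescaling to equal sums without them, a step chosen after seeing the data, multiplied UUO values by 1.83. Acadvl was then at -1.76, Hadha at -0.64, Ehhadh at -0.51, Cpt1a at 1.53, Cpt2 at 2.44 and Ppara at 1.94, with a median of 0.43 over number-only genes. From the highest to the lowest of the 9 genes, a range within a library that scaling does not touch, FPKM spanned 81.7-fold in WT and 7.19-fold in UUO urine. The WT span rests on Cpt2 at 1.67 FPKM, about 3.53 fragments per kilobase, and is thus imprecise.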

How the data were processed

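RNA of 2 rat urine libraries, 1 WT and 1 UUO, was measured, and groups were taken from the sample titles. Per the submitters' processing notes the authors used Bowtie2 2.0.6, TopHat2 2.0.9, Cufflinks 2.1.1 and Cuffdiff 2.1.1 with the rn5 build. The study's methods describe ribosomal RNA removal and a directional kit for kidney RNA, and whether counting used strand is not given in the sources used here. The authors deposited 1 FPKM value per feature and library. The total used for scaling is not given in the sources used here, and reads of a locus are divided among its overlapping entries. The deposited table also holds the authors' ratios, test statistics, p-values and q-values, which were not used. Column names were read by the series title, which speaks of renal fibrosis, and by the headings of the published urine lists. Coordinates are printed as listed.

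For symbols, a RefSeq table of GRCr8 was used, which matched 16329 of 16484 number-only IDs. Promoters are from the RefSeq table of that build, which matched 8 of the 9 genes. Differences of log2(FPKM + 1) were computed with Python 3.11.15 and pandas 2.3.3, and the functions were checked on simulated data. Fragment totals were fitted to assembled features alone at their locus and spanning 400 to 1200 bases, for which 93.5% of 186 values in WT and 99.5% of 3530 in UUO urine came within 0.1 of a whole number. Alternatives were pseudocounts of 0.1 and 5, no filter or an FPKM of at least 5, 3 rescalings over number-only genes, sums over the locus and a 4-fold limit.

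The 9 genes, the 7 pathway lists and the 7 marker lists were chosen with earlier results of these data known. Results for some genes that the rule names are not reported here. Named are the 9 genes and, in each pathway list, the 4 with the highest mean FPKM and the greatest difference in each direction. Any further gene in the text was picked with its values in view. With 2 libraries no genes of like pattern were sought. Of the marker lists, that of male accessory gland had 0 of 4 genes at an FPKM of 1 or more.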

Additional observations from a re-analysis of the deposited data

How the results depend on the processing

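No paired analysis was possible because WT and UUO have a single library each. A log2 difference or median was taken as unchanged where it kept its sign and its side of 1, and a count where it stayed within 1.5 times. Of 219 recomputed values over 26 results, 152 were unchanged by these limits and 67 moved. For the single genes 44 of 63 were unchanged. Acadvl stayed at least 2-fold lower under all alternatives run for it, and its lowest size was -1.48, with FPKM summed over the locus. Cpt2 and Ppara stayed at least 2-fold higher except with a pseudocount of 5. The number of the 9 genes higher in UUO urine was 0 with a pseudocount of 5 and 0 at the 4-fold limit. The number lower was 1 at that limit, 1 by the median ratio, 1 by the 75th percentile and 1 by sums without haemoglobin genes. Under these 3 rescalings the median of the 9 genes was 0.30, 0.20 and 0.23, that of the peroxisomal steps -0.77, -0.86 and -0.83, and that of all number-only genes 0.51, 0.39 and 0.43. The medians of all number-only genes are over genes seen in either library. The 9 genes were seen in both, for which no rescaled background was computed. The mitochondrial median was 0.046 by the median ratio, and the median of number-only genes was 0 without a filter. Each rescaling multiplies UUO values by 1 factor (1.24 to 1.91), which moves each difference upward. Depth limits Cpt2 most, at 3.53 fragments per kilobase in WT urine.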

Other observations

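In fatty acid synthesis, the opposite pathway, the most abundant genes Acly and Fasn were lower in UUO urine. Of 10 genes, 9 reached an FPKM of 1 in either library, of which 5 were lower and 2 higher by the 2-fold limit, beside 36.5% and 25.7% of all number-only genes, with a median of -1.31. Rescaled by the median ratio, the 75th percentile and sums without haemoglobin genes, it had medians of -0.49, -0.58 and -0.55. Of the 6 genes at that level in both libraries, 3 were lower and 1 higher, with a median of -1.001. Among all number-only genes at that level in both, 42.8% were lower and 7.01% higher, with a median of -0.81. Acacb and Scd reached the level in WT urine alone and Elovl5 in UUO urine alone, so their directions were fixed by the limit. Acly, which supplies cytosolic acetyl-CoA, was at 409 FPKM in WT against 44.1 in UUO urine (log2 difference -3.18). Fasn, the fatty acid synthase and the only feature at its locus, was at 201 and 40.5 (-2.28). Scd2, a desaturase, was at 32.1 and 19.4, and the regulator Srebf1 at 17.8 and 21.8. Elovl1, an elongase of very long chains, had the greatest difference upward (4.88 in WT, 17.5 in UUO urine, 1.66), but summed over its locus the difference was 0.34.

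Of 16 genes of peroxisome assembly and catalase, 15 reached that level, of which 6 were lower and 2 higher, with a median of -0.81. Rescaled by the median ratio, the 75th percentile and sums without haemoglobin genes, the median was 0.037, -0.052 and -0.022. Of the 13 at that level in both, 5 were lower and 1 higher, beside 42.8% and 7.01% of all genes. Cat, the peroxisomal catalase, was at 385 in WT and 119 in UUO urine (-1.68). Pex11a, which acts in peroxisome division, was at 34.1 and 4.60 (-2.65), and Pex6, of the import machinery, at 26.2 and 7.45. Pex14, a docking protein of import, was listed at 0 in WT and at 14.7 in UUO urine. Its direction was fixed by the limit, as was that of Pex19, seen in WT urine alone (8.27 in WT, 0.562 in UUO urine).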
